A study of Bos taurus with 4 samples.

Results

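Expression of 5 inflammatory cytokine genes, IL1A, IL1B, IL6, TNF and CXCL8, was examined in bovine mammary tissue and lymphocytes. They were chosen as a family, by Ensembl identifier, and make up 5 of the 24616 gene rows in the deposited table. The gene names come with that choice of identifiers (ENSBTAG00000010349 for IL1A, ENSBTAG00000001321 for IL1B, ENSBTAG00000014921 for IL6, ENSBTAG00000025471 for TNF and ENSBTAG00000019716 for CXCL8), because the table itself pairs no names with its rows. The series holds 4 RNA sequencing libraries of Holstein cattle (spelled Hostein in the labels), 2 of mammary tissue from females and 2 of lymphocytes from males, which leaves tissue and sex confounded. No treatment, stimulation, age or stage of lactation is given for either group. Each library title carries a different number, and both mammary titles also carry the word "dup". The meaning of these is not given, and the labels do not name the animals behind the libraries. The p-values therefore rest on library-to-library spread, part of which may be technical.

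These genes encode secreted signals of the early inflammatory response. IL-1 alpha and IL-1 beta act through a shared receptor, TNF through its own receptors, and both routes activate the transcription factor NF-kappa B, which in turn induces IL6, CXCL8, TNF and IL1B. IL-6 drives the acute phase response and supports B and T cells, and CXCL8 (interleukin-8) attracts neutrophils. In the bovine udder, these cytokines are best known from mastitis, where epithelium and resident macrophages release them in response to bacteria. In blood, monocytes are a major source of IL-1 beta, IL-6 and CXCL8, and activated lymphocytes also make TNF.

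Levels were compared as FPKM (fragment counts scaled by transcript length and by library size), a unit that corrects for transcript length and so allows comparison between genes within a library. The FPKM of a library summed to between 828745 and 1536182, and between 15844 and 17953 rows were above 0. Mammary replicate 2 stood apart: the median of the 12311 rows tested below was 2.57 FPKM there, against 6.91 FPKM in mammary replicate 1, 6.85 FPKM in lymphocyte replicate 1 and 9.20 FPKM in lymphocyte replicate 2. Read depth is unknown. Markers of T cells, B cells, monocytes, neutrophils and mammary epithelium could not be matched to rows without gene names, so the tissue labels were not checked against them here. In such bulk libraries, fewer cells of a type and less RNA per cell cannot be told apart.

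CXCL8 had the highest level of the 5 genes, and it had it in 1 library alone. Its level was 123 FPKM in lymphocyte replicate 1 and 7.96 FPKM in lymphocyte replicate 2, against 0.293 and 0.113 FPKM in mammary replicates 1 and 2. Both lymphocyte libraries thus lay above both mammary libraries, and the lymphocyte libraries lay far from each other. Both lymphocyte libraries were above both mammary libraries in 52.7% of the 12311 rows tested below, so this order is common here. TNF, the next most abundant of the family, measured 5.97 FPKM in lymphocyte replicate 1 and 8.72 FPKM in lymphocyte replicate 2, against 4.66 FPKM in mammary replicate 1 and 0.336 FPKM in mammary replicate 2. The groups did not overlap for TNF either, but mammary replicate 1 was close to the lymphocyte libraries and mammary replicate 2 was the library that stood low.

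The IL-1 genes were low throughout. IL1B measured 1.89 FPKM in mammary replicate 1 and 0.312 FPKM in mammary replicate 2, against 1.22 FPKM in lymphocyte replicate 1 and 1.31 FPKM in lymphocyte replicate 2. The mammary libraries lay on either side of the lymphocyte libraries, which were close together. IL1A measured 0.4998 FPKM in mammary replicate 1 and 0.0319 FPKM in mammary replicate 2, and its lymphocyte levels were 0.0405 FPKM (replicate 1) and 0.0484 FPKM (replicate 2). Mammary replicate 1 was the high library for IL1A, and the other 3 were all below 0.05 FPKM. IL6 was at 0.309 FPKM in mammary replicate 1 and listed at 0 in mammary replicate 2, and its lymphocyte levels were 0.447 FPKM (replicate 1) and 0.0788 FPKM (replicate 2). The groups overlapped for IL1A, IL1B and IL6, and IL1A and IL6 stayed below 1 FPKM in all 4 libraries.

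**Figure D1:**
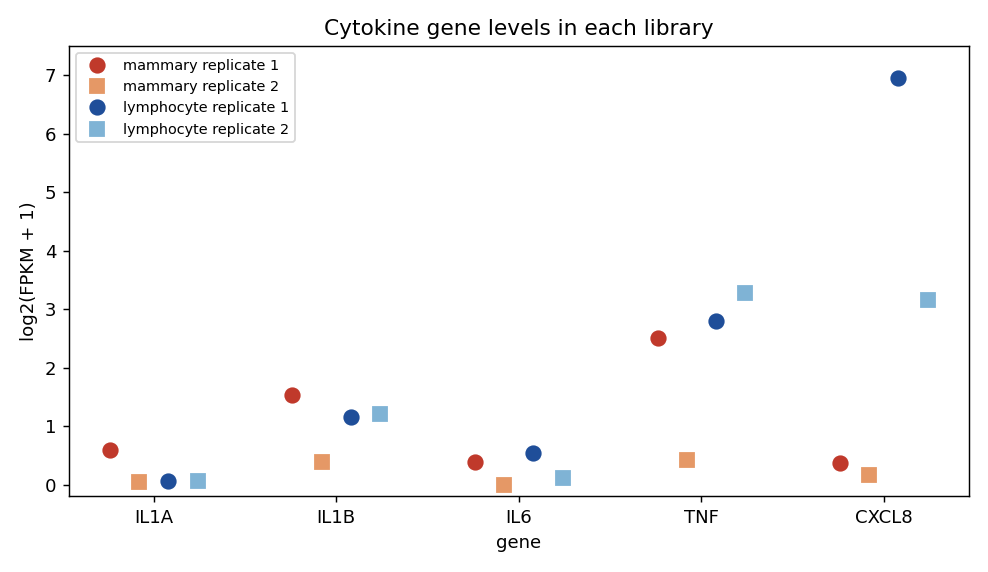
Levels of IL1A, IL1B, IL6, TNF and CXCL8 as log2(FPKM + 1) on the vertical axis, with 1 point per library (red and orange for mammary tissue, dark and light blue for lymphocytes). CXCL8 in lymphocyte replicate 1, at 123 FPKM, stands above all other points, and mammary replicate 2 is the lowest library for every gene.

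The order of the genes differed between libraries. In lymphocyte replicate 1 it ran CXCL8, TNF, IL1B, IL6, IL1A from highest to lowest, and in lymphocyte replicate 2 TNF and CXCL8 changed places, at a TNF level 1.10 times that of CXCL8. In mammary replicate 1 the order was TNF, IL1B, IL1A, IL6, CXCL8, so the gene that led in lymphocyte replicate 1 was last. In mammary replicate 2 TNF was again highest, followed by IL1B, CXCL8, IL1A and IL6. TNF exceeded IL1B in every library, by 2.47 and 1.08 times in the mammary libraries and by 4.89 and 6.64 times in the lymphocyte libraries, in replicate order. The ratio of IL1B to IL1A, the 2 ligands of the shared IL-1 receptor, was 3.78 and 9.80 in the mammary libraries and 30.1 and 27.1 in the lymphocyte libraries, again in replicate order. This ratio does not change when a library is scaled by 1 factor, but quantile normalization does change it. As deposited, the ratio was higher in both lymphocyte libraries than in both mammary libraries. In all libraries but mammary replicate 1, however, it rests on an IL1A level between 0.0319 and 0.0484 FPKM, where the precision is unknown. With 2 libraries a group, an exact two-sided permutation test cannot give a p below 0.33, so such ratios are descriptions.

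CXCL8 also set the summed level of the family. The 5 genes together reached 131 FPKM in lymphocyte replicate 1, 18.1 FPKM in lymphocyte replicate 2, 7.65 FPKM in mammary replicate 1 and 0.793 FPKM in mammary replicate 2. CXCL8 made up 94.1% and 43.9% of that sum in lymphocyte replicates 1 and 2, and 3.83% and 14.3% in mammary replicates 1 and 2. Without CXCL8, the other 4 genes summed to 7.68 FPKM in lymphocyte replicate 1, 10.2 FPKM in lymphocyte replicate 2, 7.36 FPKM in mammary replicate 1 and 0.680 FPKM in mammary replicate 2. Without CXCL8, mammary replicate 1 was thus next to the lymphocyte libraries, and mammary replicate 2 was the low one.

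Ranking each gene within its own library removes the scaling between libraries. Among the rows above 0, CXCL8 was at percentile 97.7 in lymphocyte replicate 1, where it was the 358th highest row, and at percentile 59.1 in lymphocyte replicate 2. In mammary replicates 1 and 2 it was at percentiles 16.9 and 12.9. TNF was near the middle in 3 libraries, at percentile 55.1 in mammary replicate 1 and 57.8 and 61.2 in the lymphocyte libraries, and lower in mammary replicate 2, at 24.6. IL1B was at percentiles 37.0 and 23.7 in the mammary libraries and 32.5 and 32.3 in the lymphocyte libraries, in replicate order. IL1A was at percentile 22.1 in mammary replicate 1 and between 3.94 and 5.49 in the other libraries. IL6 was at percentile 17.4 in mammary replicate 1 and at 22.2 and 8.19 in lymphocyte replicates 1 and 2. By rank as by level, both lymphocyte libraries were above both mammary libraries for CXCL8 and TNF, as they were by rank for 37.3% of the 12311 rows tested below. TNF, IL1B and CXCL8 had their lowest percentile in mammary replicate 2, where IL6 was listed at 0.

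**Figure D2:**
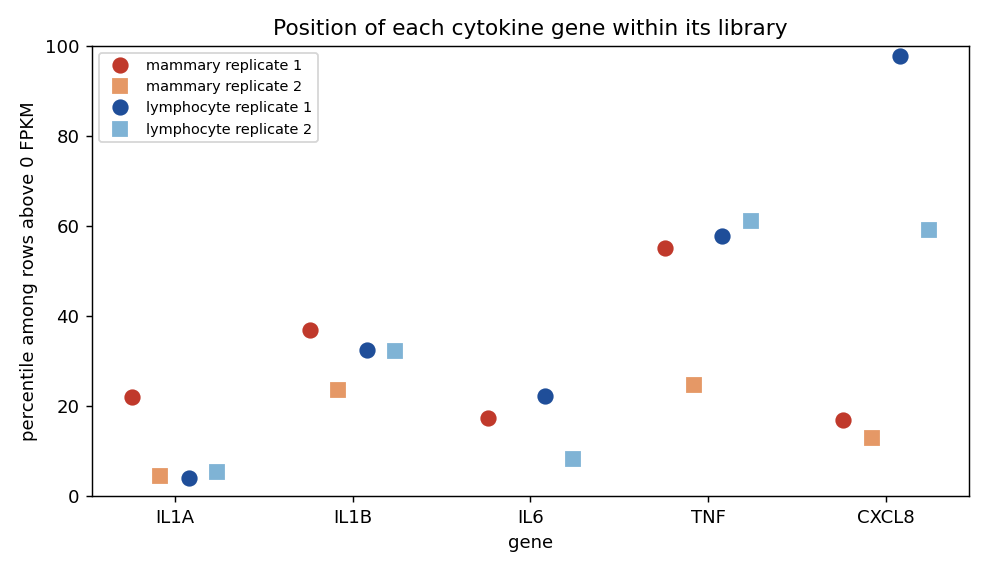
Percentile of each gene among the rows above 0 FPKM in the same library (vertical axis, from 0 to 100), with 1 point per library. CXCL8 ranges from percentile 12.9 in mammary replicate 2 to 97.7 in lymphocyte replicate 1, and TNF lies between 55.1 and 61.2 in all libraries but mammary replicate 2. IL6 in mammary replicate 2 has no point because it was listed at 0.

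The comparison of mammary tissue with lymphocytes asks how the transcriptomes of the 2 sources differ. CXCL8, the neutrophil attractant, was the only one of the 5 genes past the threshold, with lymphocytes higher. That direction was fixed by the filter on low values, which CXCL8 passed through its lymphocyte libraries alone, and the call held in 6 of 16 alternatives. For TNF and IL1B no difference passed the test. The test was limma's moderated test on log2(FPKM + 1), two-sided, with Benjamini-Hochberg adjustment over the 12311 rows for which 2 or more of the 4 libraries reached 1 FPKM, with a threshold of 0.05. Adding 1 FPKM understates the change of low genes. Of the 5 genes, 3 entered the test (IL1B, TNF and CXCL8), and IL1A and IL6 did not reach the required level. Of all rows tested, 19.2% passed in either direction and 10.7% passed as higher in lymphocytes.

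For CXCL8, mean log2(FPKM + 1) was 0.26 ± 0.15 in mammary tissue and 5.06 ± 2.68 in lymphocytes (SD, n = 2 each). The difference of mammary tissue minus lymphocytes was -4.80 on that scale (SE 0.84, 95% interval -6.43 to -3.16, limma adjusted p = 9.7e-07). The p-value rests on a spread that limma pooled over all rows: the spread used for CXCL8 was 0.84 on the log2 scale, while its own residual spread was 1.90. After median-of-ratios scaling of the libraries, where a gene's own spread entered the test, the difference was -4.24 (SE 1.43, 95% interval -8.11 to -0.37) and missed the threshold at a limma adjusted p of 0.11, in a fit that called 20.5% of all rows. Over 16 alternatives the difference stayed between -6.77 and -2.17, always higher in lymphocytes, the limma adjusted p ranged from 9.2e-12 to 0.32, and 6 of the 16 passed. The height of CXCL8 in lymphocytes also depended on 1 library: without lymphocyte replicate 1 the difference was -2.90, and without lymphocyte replicate 2 it was -6.69. Without mammary replicate 1 or 2 the differences were -4.91 and -4.69.

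For TNF, mean log2(FPKM + 1) was 1.46 ± 1.47 in mammary tissue and 3.04 ± 0.34 in lymphocytes (SD, n = 2 each). The difference of -1.58 missed the threshold (SE 0.79, 95% interval -3.13 to -0.03, limma adjusted p = 0.16). The typical row was also lower in mammary tissue, with a median difference of -0.81 over all rows tested. After median-of-ratios scaling, which moved that median to 0.04, the TNF difference was -0.97 (limma adjusted p = 0.27). TNF passed the threshold without mammary replicate 1, at -2.62 (limma adjusted p = 0.031), where 31.1% of all rows passed. With median-of-ratios scaling and without that library it passed at -1.74 (limma adjusted p = 0.030), with 20.7% of all rows. It also passed after the libraries were rescaled to a common FPKM total, at -2.12 (limma adjusted p = 0.0056), where 54.6% of all rows passed and the median row lay at -1.38. Lymphocytes were higher in all 16 alternatives, and with all 4 libraries the limma adjusted p ranged from 0.0056 to 0.33. The groups did not overlap for TNF as deposited or after median-of-ratios scaling. Changing the pseudocount, filter, trend or libraries therefore could not turn its direction. Non-overlap with lymphocytes higher, as seen for TNF and CXCL8, was found in 34.1% of all rows after median-of-ratios scaling. Non-overlap with mammary tissue higher was found in 13.7% of rows as deposited and in 36.3% after that scaling. For TNF the lymphocyte libraries stayed higher after the scaling, by a small margin: the scaled mammary levels were 4.20 FPKM (replicate 1) and 0.785 FPKM (replicate 2), and the scaled lymphocyte levels were 4.80 FPKM (replicate 1) and 5.15 FPKM (replicate 2).

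For IL1B, mean log2(FPKM + 1) was 0.96 ± 0.80 in mammary tissue and 1.18 ± 0.04 in lymphocytes (SD, n = 2 each). The difference of -0.22 was smaller than the spread between the mammary libraries (SE 0.52, limma adjusted p = 0.77), and its 95% interval, from -1.23 to 0.79, includes differences of more than 1 toward lymphocytes. Its sign depended on the scaling, at 0.21 after median-of-ratios scaling (limma adjusted p = 0.65), and on the mammary library. Without mammary replicate 1 the difference was -0.79 and passed (limma adjusted p = 0.026), as did 31.1% of all rows, and without mammary replicate 2 it was 0.35 (limma adjusted p = 0.29); the range of limma adjusted p over 15 alternatives was 0.026 to 0.99. IL1A and IL6 were fitted only when the filter on low values was dropped. In that fit IL1A differed by 0.25 (SE 0.17, limma adjusted p = 0.39) and IL6 by -0.13 (SE 0.19, limma adjusted p = 0.68). CXCL8 no longer passed there (limma adjusted p = 0.12), in a fit that called 5 of 19337 rows.

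**Figure D3:**
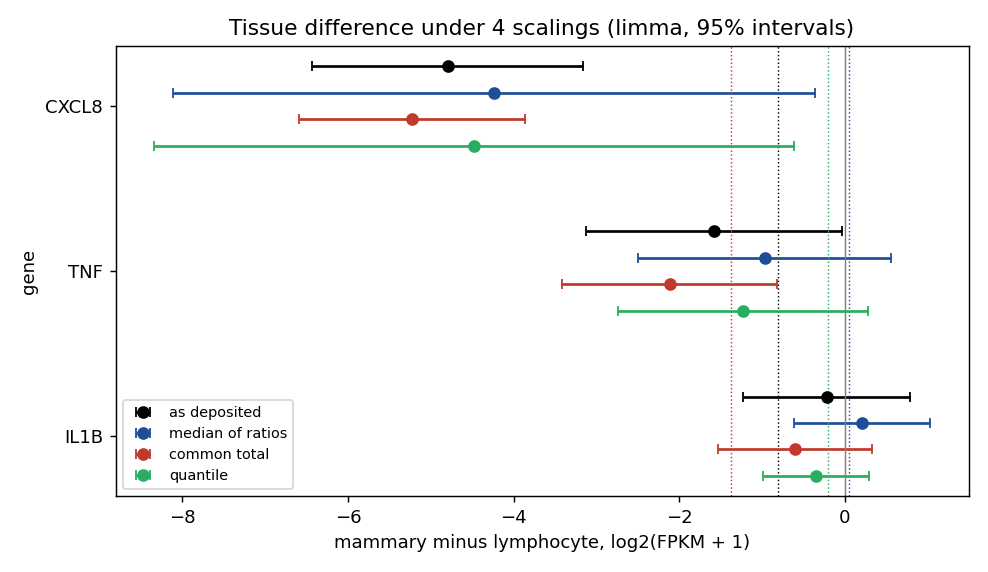
Difference of mammary tissue minus lymphocytes in log2(FPKM + 1) on the horizontal axis for CXCL8, TNF and IL1B, with limma's 95% intervals, for FPKM as deposited and after 3 other scalings. Dotted lines mark the median of all rows tested in the same colour. CXCL8 stays between -5.23 and -4.24, with wider intervals after median-of-ratios and quantile scaling, and the IL1B points lie on both sides of 0.

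The lymphocyte libraries were then set against each other, because raised cytokine transcripts are a usual sign of leukocyte activation. CXCL8 was far higher in lymphocyte replicate 1. IL6 leaned the same way at levels below 1 FPKM, while TNF and IL1B differed by less than 1.5 times. With 1 library on each side there is no test, and the differences below describe these libraries. CXCL8 was 15.5 times higher in lymphocyte replicate 1 than in lymphocyte replicate 2, a difference of 3.79 in log2(FPKM + 1). Over the 11846 rows that reached 1 FPKM in either lymphocyte library, the median row was lower in replicate 1, at -0.42. Of those rows, 1.43% were more than 4-fold higher in lymphocyte replicate 1 and 0.439% more than 4-fold higher in lymphocyte replicate 2, on the log2(FPKM + 1) scale. IL1B, TNF and CXCL8 were among the rows compared, and of these 3 CXCL8 alone was past 4-fold on that scale; 6 rows showed a larger difference toward replicate 1. After median-of-ratios scaling CXCL8 was 21.1 times higher in replicate 1, again with 6 rows above it and with 1.76% of rows past 4-fold in that direction.

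TNF and IL1B, which NF-kappa B induces as it does CXCL8, differed little between the lymphocyte libraries. TNF was 1.46 times higher in lymphocyte replicate 2, a difference of -0.48 against the median of -0.42. IL1B was 1.08 times higher in lymphocyte replicate 2, at -0.06, which lay above the upper quartile of all rows (-0.17); 18.4% of rows leaned further toward replicate 1. After median-of-ratios scaling TNF was 1.07 times higher in replicate 2 and IL1B 1.26 times higher in replicate 1. The direction for IL1B therefore depended on the scaling. IL1A, at 0.0405 and 0.0484 FPKM, was too low to compare. IL6 leaned the same way as CXCL8, at 5.67 times higher in replicate 1, but from 0.0788 to 0.447 FPKM, where adding 1 FPKM reduces the difference to 0.42. In deposited levels, CXCL8 and IL6 were thus higher in lymphocyte replicate 1, with IL6 below 1 FPKM, and TNF and IL1B were not. Of the 11846 rows compared, 16.0% were higher in replicate 1, so TNF and IL1B had the direction of most rows. Whether these genes share a cause was not tested. The receptors, NF-kappa B feedback genes and early activation genes that would widen this comparison could not be matched to rows without names.

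Rows with a profile like that of CXCL8 were counted. At 100 FPKM or more in lymphocyte replicate 1 there were 426 rows, CXCL8 included. Of these, 23 were more than 8-fold above lymphocyte replicate 2 in log2(FPKM + 1), 12 were below 1 FPKM in both mammary libraries, and 8 met both conditions. These limits were chosen after the values of CXCL8 had been seen, so the counts only describe its surroundings. Likeness was also measured as the Euclidean distance in log2(FPKM + 1) over the 4 libraries, among rows that reached 1 FPKM in any library. Within a distance of 0.5 there were 2 rows for CXCL8, 22 for TNF, 127 for IL1B, 30 for IL1A and 0 for IL6. None of these rows carries a name in the sources used here, so they are counted and not named, and the low level of IL1B brings many rows close to it. IL1A and IL6 stayed below 1 FPKM in all 4 libraries, while every row compared with them reached 1 FPKM in at least 1. That limit kept rows away from IL1A and IL6, with nearest distances of 0.43 and 0.55. Their counts therefore do not show how unusual their profiles are.

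All 5 genes had a higher deposited level in mammary replicate 1 than in mammary replicate 2, and on the log2(FPKM + 1) scale TNF differed most. Its level in mammary replicate 1 was 13.9 times that in mammary replicate 2, a difference of 2.08 in log2(FPKM + 1). Most rows leaned the same way: over the 12870 rows that reached 1 FPKM in either mammary library, the median row was 1.09 higher in replicate 1, 93.1% of rows were higher there, and 8.7% were more than 4-fold higher, against 0.894% that were more than 4-fold higher in replicate 2. Larger differences toward replicate 1 than that of TNF were found in 7.37% of the rows. IL1B was 6.05 times higher in mammary replicate 1, and its difference of 1.14 was close to the median row. IL1A was 15.7 times higher in mammary replicate 1 at levels below 1 FPKM, and CXCL8 was 2.59 times higher. IL6 was listed at 0 in mammary replicate 2. After median-of-ratios scaling, TNF was 5.35 times, IL1A 6.05 times and IL1B 2.33 times higher in mammary replicate 1, while CXCL8 was at 0.264 and 0.265 FPKM in replicates 1 and 2. In log2(scaled FPKM + 1), the TNF difference of 1.54 was below 4-fold, which 1.27% of rows passed toward replicate 1, and 3.14% of rows had a larger one.

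**Figure D4:**
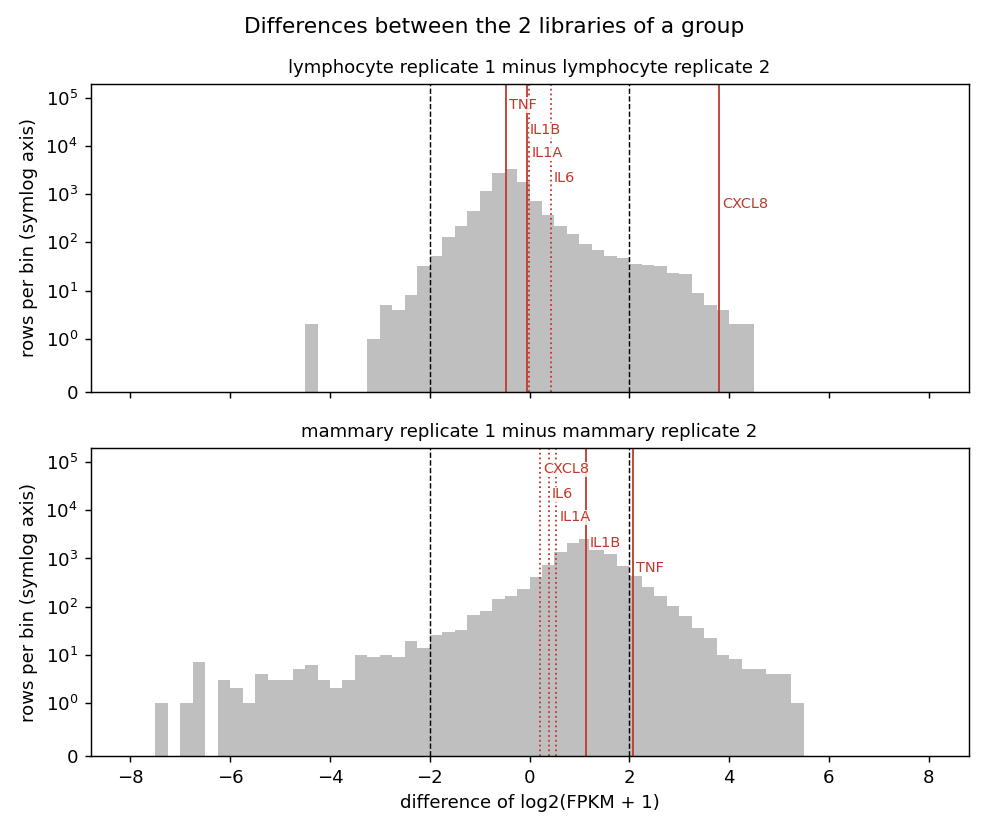
Distribution of the difference between the 2 libraries of a group, replicate 1 minus replicate 2 in log2(FPKM + 1) on the horizontal axis, with the number of rows per bin on a symmetric log axis. Red lines mark the 5 cytokine genes, dotted where the gene was below 1 FPKM in both libraries of that group, and dashed black lines mark 4-fold. CXCL8, at 3.79, lies in the far right tail of the lymphocyte libraries, and TNF, at 2.08, just past 4-fold in the mammary libraries.

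On the cattle assembly ARS-UCD2.0, the RefSeq gene table lists all 5 genes by symbol, on 4 chromosomes. IL1A and IL1B share a chromosome, with 1 protein-coding gene listed between them, and TNF lies between LTB and LTA, which encode the lymphotoxins, close relatives of TNF. The profiles of IL1A and IL1B differed in mammary replicate 1. IL1A in mammary replicate 1 was 12.3 and 10.3 times its level in lymphocyte replicates 1 and 2, and IL1B in mammary replicate 1 was 1.55 and 1.44 times its level there. In mammary replicate 2 both genes were below both lymphocyte libraries, IL1A at 0.79 and 0.66 times and IL1B at 0.26 and 0.24 times. The IL1A ratios divide by lymphocyte levels of 0.0405 and 0.0484 FPKM, where the precision is unknown.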

How the data were processed

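Per the labels, 2 mammary and 2 lymphocyte libraries, made from RNA of integrity number 9.0, were sequenced from both ends with reads of 150 bp. The authors deposited 1 FPKM value per Ensembl gene and library. The submitters' processing notes name Trimmomatic 0.39, STAR, Cufflinks and the assembly UMD3.1; the sources used here do not give their roles, settings, annotation or use of strand. Each value column matched 1 sample title, and replicate numbers follow accession order. The 5 genes, the lists and the tests were chosen with earlier results of these data known. None of the 24616 identifiers matched an Ensembl identifier in the RefSeq table of 37063 genes. The pathway, activation and cell type lists were therefore not tested.

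From the FPKM as deposited, log2(FPKM + 1) was computed and fitted with limma 3.58.1 (R 4.3.3, mean-variance trend, tissue as the only term) to all 4 libraries. With 2 residual degrees of freedom, limma's prior degrees of freedom were infinite, so the test used for each row the pooled spread at its level. That prior fell to 2.27 degrees of freedom after median-of-ratios scaling. The fitting code was run on simulated data with independent normal noise of the spread that limma used. Those values were shifted up so that adding 1 FPKM did not floor them. The simulation held no low levels, no library offset and no gene with a larger spread of its own. It therefore does not bear on the p-values given here. The rule for named genes took the 5 members and, for likeness, only rows carrying a symbol, of which there were 0. FPKM keeps no counts: in rows below 0.08 FPKM, at best 63 of 337 mammary and 76 of 453 lymphocyte ratios fell on whole-fragment steps (tolerance 0.015 in log2), so reads were not recovered, depth is unknown and no count test or counting interval was possible. Alternatives varied the pseudocount, filter, scaling, trend and libraries. After the data were seen, leaving out each library after median-of-ratios scaling was added.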

Additional observations from a re-analysis of the deposited data

How the results depend on the processing

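CXCL8 stayed higher in lymphocytes under all 16 alternatives for the tissue comparison. In fits of deposited levels with a filter on low values, that direction was fixed, because CXCL8 passed through its lymphocyte libraries alone. The CXCL8 call did not hold. Without the filter on low values, limma's adjusted p was 0.12 (difference -4.80), in a fit where 5 of 19337 rows passed. Limma's adjusted p was 0.11 after median-of-ratios scaling (-4.24) and 0.087 after quantile normalization (-4.48). Leaving out each library gave differences from -6.69 to -2.90, and from -6.31 to -2.17 after median-of-ratios scaling. TNF stayed higher in lymphocytes, from -2.62 to -0.54 (after scaling, -1.74 to -0.20) with a library left out, and passed at -2.12 after rescaling to a common total. Its groups did not overlap as deposited or after median-of-ratios scaling, so leaving out a library could not turn its direction. IL1B turned to 0.21 after median-of-ratios scaling and to 0.35 without mammary replicate 2; with a library left out it ranged from -0.79 to 0.35, and after scaling from -0.12 to 0.53, with 0.28 without lymphocyte replicate 1 and 0.13 without lymphocyte replicate 2. It could not be fitted under the filter at 5 FPKM. IL1A and IL6 kept their sign under each scaling of all 4 libraries, but not with a library left out (IL1A -0.02 to 0.52, IL6 -0.34 to 0.11). A pseudocount of 0.1 gave 0.96 for IL1A and -0.63 for IL6.

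The 2363 calls were split into 1051 with mammary tissue higher and 1312 with lymphocytes higher (44.5% mammary). The split was 1569 and 957 after median-of-ratios scaling (62.1%), 1074 and 5644 after rescaling to a common total (6718 calls, 16.0%) and 383 and 987 with a filter at 5 FPKM (1370 calls, 28.0%). Without the filter, limma called 5 rows, 4 and 1. Leaving out each library gave 102 to 3828 calls (37 to 1187 higher in mammary tissue, 58 to 2754 in lymphocytes). After scaling it gave 0 to 2549 (0 to 1821 and 0 to 728; 1522 calls, 245 of them higher in lymphocytes, without mammary replicate 2); the count of 0 by limma arose without either lymphocyte library, where 2819 and 2967 rows had p under 0.05 before adjustment. The lone library of a group was assumed to vary like the other group in all these fits.

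Between libraries of a group, CXCL8 kept its lymphocyte difference between 3.31 and 4.13. With a pseudocount of 0.1, IL6 differed by 1.61 between the lymphocyte libraries, and between the mammary libraries IL1A differed by 2.19, IL1B by 2.27, IL6 by 2.03 and TNF by 3.45. With a pseudocount of 5, TNF differed by 0.86 there. The levels were the same in these pseudocount settings, and a larger pseudocount shrinks the differences of low genes. The cause of the changes in the tissue comparison was not tested. No paired analysis was possible. Mammary tissue came from females and lymphocytes from males, so no animal gave both, and the labels share no replicate numbers between groups. The planned gene lists were not run, as no names could be assigned.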
